A study of Mus musculus with 10 samples.

Results

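The 54 genes described here are interferon-stimulated genes, taken as a list of symbols and matched by Ensembl identifier to the rows of a table of read counts. All 54 were found among 55414 rows, and all 54 had enough reads to be tested, among 14669 tested genes. The counts come from polyadenylated RNA of 10 libraries of mouse splenic macrophages, isolated with magnetic beads that carry antibody to the macrophage surface protein F4/80. The controls (WT, 5 libraries) carry the genotype label C57BL/6N, and the other 5 libraries are labelled as knockout (Fpr2KO) for Fpr2, the gene of formyl peptide receptor 2. No treatment, time point, age or sex is given for either group, nor the strain background of the knockout, and the labels do not say whether replicates are separate animals. The p-values therefore measure only how far these samples spread, and that spread could be technical. The comparison asks how the genes differ in the absence of Fpr2, and whether type I antiviral genes and the Gbp and Irg GTPases differ in the same way.

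Interferons are secreted proteins that warn cells of infection. Type I interferons signal through the receptor pair Ifnar1 and Ifnar2 to a complex that includes Stat2 and Irf9 and binds interferon-stimulated response elements in promoters. Interferon gamma signals through Ifngr1 and Ifngr2, and promoters of its targets carry gamma-activated sites. Both routes induce genes that sense viral nucleic acid, block viral translation and replication, or attack the membranes around intracellular microbes, and macrophages express many of them without infection. The 54 members were divided by role into 4 regulators, 7 nucleic acid sensors, 25 antiviral effectors, 8 GTPases of the Gbp and Irg families, and 10 other induced genes. The regulators, sensors and effectors together are called the 36 type I antiviral genes below, after their best known inducer. Many of them also respond to interferon gamma.

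RefSeq promoters of GRCm38.p6 matched 42 members, and the 250 bases before each start were searched on both strands for GAAANNGAAA, the core of the response element, and for TTCNNNGAA, the gamma-activated site. The first motif was present in 22 of the 42 members (52.4%) and in 2.9% of the 10419 tested genes with a promoter, and the second in 9 members (21.4%) and in 6.0% of these genes. All 7 GTPases with a promoter held the first motif and 4 of them (Gbp5, Gbp7, Igtp and Irgm2) also the second. That combination was found in 2 of 27 type I antiviral genes and in 0.374% of tested genes. The RefSeq starts of Gbp5 and Irgm2 lie 2956 and 15359 bases from the GENCODE starts. A match is a description of the letters and not evidence of binding, and no test was made of these shares. 12 members had no entry (Dhx58, Ifi204, Iigp1, Ly6e, Mx1, Mx2, Oas2, Parp14, Parp9, Rtp4, Usp18 and Zbp1). The 130 bases before the start are shown 5′ to 3′ on the strand of the gene for 7 members, with matches to either motif in capitals. Slfn1, Ddx60 and Isg20 are shown because they had the smallest p-values of the 54, Isg15 and Rsad2 as effectors and Igtp and Gbp7 as GTPases.
Slfn1 (chr11:83116690-83116819, plus strand): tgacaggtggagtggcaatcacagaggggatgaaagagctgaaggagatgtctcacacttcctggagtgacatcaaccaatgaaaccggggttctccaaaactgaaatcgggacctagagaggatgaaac
Ddx60 (chr8:61927957-61928086, plus strand): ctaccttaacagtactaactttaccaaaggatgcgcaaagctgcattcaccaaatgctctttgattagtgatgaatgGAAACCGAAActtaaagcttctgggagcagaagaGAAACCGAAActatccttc
Isg20 (chr7:78913294-78913423, plus strand): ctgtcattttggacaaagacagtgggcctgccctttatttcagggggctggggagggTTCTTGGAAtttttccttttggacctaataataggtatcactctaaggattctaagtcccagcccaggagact
Isg15 (chr4:156200819-156200948, minus strand): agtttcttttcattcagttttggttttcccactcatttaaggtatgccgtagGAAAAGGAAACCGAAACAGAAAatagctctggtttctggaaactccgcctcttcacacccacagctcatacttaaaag
Rsad2 (chr12:26456453-26456582, minus strand): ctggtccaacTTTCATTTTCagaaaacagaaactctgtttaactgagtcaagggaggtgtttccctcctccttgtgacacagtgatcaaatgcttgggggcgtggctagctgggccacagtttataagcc
Igtp (chr11:58199426-58199555, plus strand): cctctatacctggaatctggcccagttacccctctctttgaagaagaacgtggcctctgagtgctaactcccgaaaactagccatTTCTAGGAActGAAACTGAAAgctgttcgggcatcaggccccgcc
Gbp7 (chr3:142530206-142530335, plus strand): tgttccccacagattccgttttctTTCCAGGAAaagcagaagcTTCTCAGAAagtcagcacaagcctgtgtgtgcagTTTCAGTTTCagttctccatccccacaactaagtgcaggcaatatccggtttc
Isg15 held 3 overlapping response element matches that begin 78, 72 and 66 bases before the start, Ddx60 held 2 (53 and 19 bases) and Rsad2 held 1 on the opposite strand (120 bases). Igtp held a gamma-activated site at 45 bases and a response element match at 34 bases, and Gbp7 a response element match at 53 bases on the opposite strand with gamma-activated sites at 106 and 87 bases. Isg20 held a gamma-activated site at 73 bases and no response element match in the 250 bases, and Slfn1 held neither motif there.

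The libraries held between 15865820 and 19060188 counts assigned to genes. Fpr2 was measured at 19.2 to 33.6 CPM in WT (CPM are counts scaled to library size by TMM) and had 0 reads in each Fpr2KO library, as labelled. Of 12 red pulp macrophage markers 6 had lower and 6 higher estimates in Fpr2KO, with a median log2 fold change of 0.00, and their summed level ran from 7832 to 10110 CPM in WT and from 7607 to 10340 CPM in Fpr2KO. All 12 neutrophil markers were estimated lower in Fpr2KO (median log2 fold change -0.68; summed level 942.3 to 1570 CPM in WT and 533.4 to 993.3 CPM in Fpr2KO), as were all 8 classical monocyte markers (-0.72; 937.5 to 1459 and 673.4 to 925.6 CPM). All 10 immediate early genes were estimated lower (-0.37; 13340 to 20320 and 10940 to 13780 CPM), and all 9 erythroid markers higher (0.99; 1627 to 6496 and 4489 to 10580 CPM). The 6 platelet markers tested were estimated lower (-0.57; 24.3 to 46.1 and 19.4 to 30.9 CPM) and all 7 B cell markers higher (0.24; 2201 to 3344 and 2871 to 3836 CPM), while those of plasmacytoid and conventional dendritic cells had estimates of both signs (medians 0.05 and 0.01). No marker was at 0 reads in all libraries and none passed the FDR by edgeR, whereas DESeq2 called 5 of the neutrophil, 3 of the monocyte, 2 of the immediate early, 1 of the erythroid, 1 of the platelet and 1 of the red pulp macrophage markers, beside 1.26% of all tested genes. The fit with the replicate number as a block called 4 neutrophil markers and 1 each of the monocyte, platelet and red pulp macrophage lists, beside 0.436% of all tested genes. Neutrophils and monocytes express many of the 54 genes, the part of these cells in the values below was not tested, and in bulk RNA fewer cells of a type and less RNA per cell cannot be told apart.

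No interferon-stimulated gene passed a false discovery rate (FDR) of 0.05 between the genotypes, with 0 of 54 against 10 of 14669 genes tested (0.0682%) by edgeR's quasi-likelihood test. The lowest adjusted p of the 54 was that of Slfn1 (FDR = 0.0845). At an unadjusted p under 0.05, 6 members were lower and 1 higher in Fpr2KO, whereas 4.92% of all tested genes were lower and 4.88% higher at that level. DESeq2 called 3 members (Slfn1, Ddx60 and Isg20; 1.26% of all genes by DESeq2), limma voom called 0 (0.0886% of all genes) and the fit with the replicate number as a block 0 (0.436%). Without WT replicate 5, where 0.342% of all genes passed, 0 members did. Of the 54, 43 had estimates below 0 and 11 above, beside 46.8% of all tested genes below 0. The median log2 fold change was -0.10 for the members and 0.01 for all genes. With upper quartile scaling, which moved the estimates of all genes upwards, 37 members were below 0 and 17 above (median -0.08), beside 6129 of the 14669 tested genes below 0 (median 0.03). The count rested in part on single libraries, since 35 were below 0 without Fpr2KO replicate 4 (median -0.03) and 33 without WT replicate 4 (median -0.05), while without Fpr2KO replicate 2 the median was -0.23.

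**Figure D1:**
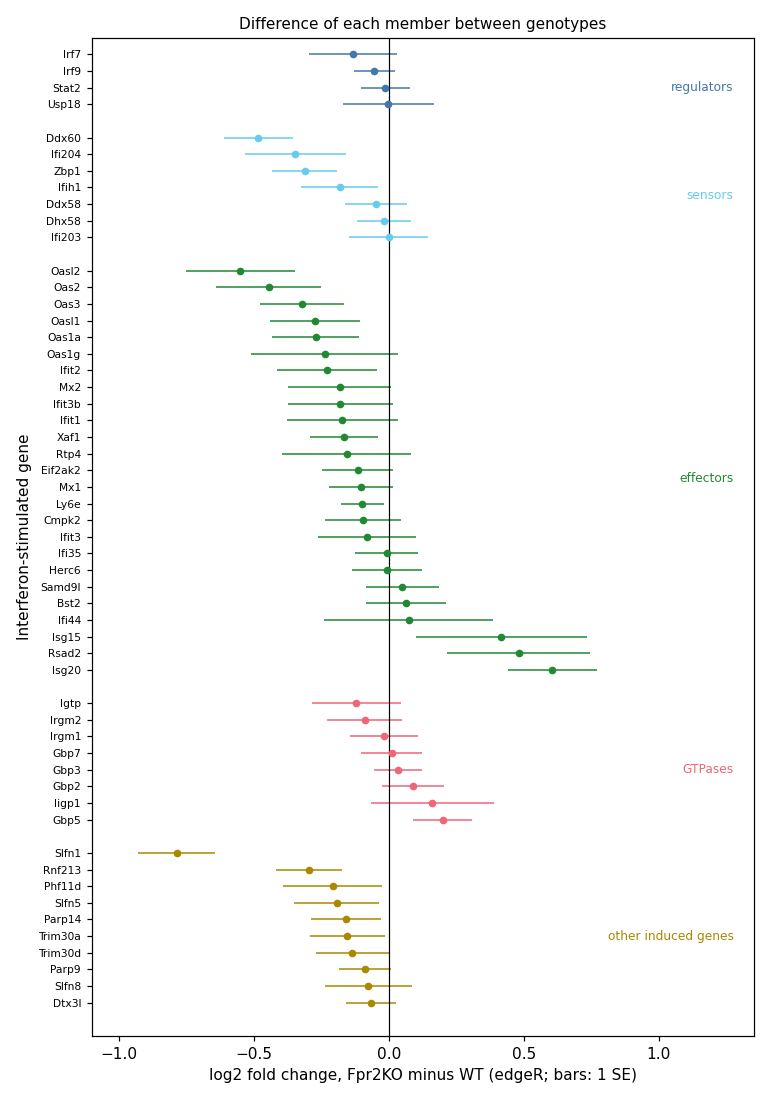
Log2 fold change of each of the 54 members, Fpr2KO minus WT, by edgeR (horizontal axis; points are estimates and bars 1 SE), grouped by role. Slfn1 has the lowest estimate (-0.79) and Isg20 the highest (0.61), and the 8 GTPases lie between -0.12 and 0.20.

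The 4 regulators differed little between genotypes, with estimates from -0.13 to 0.00. Irf7, the transcription factor that amplifies type I interferon production, was measured at 62.8, 71.3, 103.8, 118.9 and 73.6 CPM in WT replicates 1 to 5 and at 83.3, 76.6, 85.4, 63.2 and 84.0 CPM in Fpr2KO replicates 1 to 5. The WT range enclosed the whole Fpr2KO range, with WT replicates 3 and 4 above every Fpr2KO library (log2 fold change -0.13, SE 0.16, FDR = 0.812 by edgeR). Without WT replicate 4 the estimate for Irf7 was 0.01. Irf9 and Stat2, the DNA-binding partner and the transactivating subunit of the type I complex, were at 100.2 ± 7.10 and 127.1 ± 13.9 CPM in WT and at 96.6 ± 6.63 and 125.8 ± 11.2 CPM in Fpr2KO (SD, n = 5). Usp18, the protease that removes Isg15 from proteins and restrains Ifnar2 signalling, was at 19.9 ± 4.07 CPM in WT against 19.9 ± 4.45 CPM in Fpr2KO, with Fpr2KO replicate 4 lowest at 13.7 CPM and Fpr2KO replicate 2 highest at 25.2 CPM.

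All 7 sensors had estimates below 0, of which Ddx60 and Zbp1 were the 2 with an unadjusted p under 0.05 (0.00184 and 0.0216 by edgeR). The count of sensors below 0 depended on single libraries and on the scaling. It was 4, with 3 above 0, without Fpr2KO replicate 4. Without WT replicate 4, and also with upper quartile scaling, 5 were below 0 and 2 above. Ddx60, an interferon-induced DExD/H-box helicase, lies on chromosome 8 (GRCm38, plus strand, 61928087 to 62038244). It was measured at 35.5, 34.6, 29.6, 29.1 and 27.4 CPM in WT replicates 1 to 5 and at 20.4, 29.7, 21.2, 18.2 and 22.2 CPM in Fpr2KO replicates 1 to 5. Fpr2KO replicate 2 lay inside the WT range and the other 4 Fpr2KO libraries lay below all WT libraries (log2 fold change -0.48, SE 0.13, FDR = 0.207 by edgeR). Ddx60 passed the FDR with DESeq2 (0.036) and without Fpr2KO replicate 2 (log2 fold change -0.62, FDR = 0.0323 by edgeR), a fit in which 0.174% of all genes passed. Zbp1, a sensor of left-handed nucleic acid that triggers cell death, was at 58.4 ± 9.80 CPM in WT against 47.1 ± 6.80 CPM in Fpr2KO (SD, n = 5), with overlapping groups. Ifih1, the sensor of long double-stranded RNA, was at 71.5 ± 6.40 and 63.0 ± 16.6 CPM, and Fpr2KO replicate 2 was its highest library at 91.6 CPM and Fpr2KO replicate 4 its lowest at 48.2 CPM. For Ifi204, an interferon-induced DNA-binding protein of the p200 family, the log2 fold change was -0.35 (SE 0.19). Its relative Ifi203, the sensor gene with the highest level per exon length, was estimated at 0.00 (SE 0.15). Of the 31-base sequences of their transcripts, 34.0% and 21.6% also occur in other genes, so reads of both could have been split. Ddx58 (RIG-I) and Dhx58 (LGP2) had estimates of -0.05 and -0.02.

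The 25 effectors did not move as one group, with 19 estimates below 0 and 6 above and a median of -0.12. All 6 oligoadenylate synthetase genes, whose products activate or accompany the RNase L pathway, had estimates below 0, from -0.55 for Oasl2 to -0.24 for Oas1g. Oasl2, encoded on chromosome 5 at 114896936 to 114912234, was measured at 51.2, 60.5, 71.7, 59.7 and 45.1 CPM in WT replicates 1 to 5 and at 42.7, 55.2, 38.1, 22.6 and 38.5 CPM in Fpr2KO replicates 1 to 5. Fpr2KO replicate 2 fell among the WT libraries and replicate 4 was the lowest of the 10. The Oasl2 log2 fold change was -0.55 (SE 0.20, FDR = 0.417 by edgeR) and -0.40 without Fpr2KO replicate 4. Oas2 was at 48.7 ± 6.39 CPM in WT against 35.8 ± 10.4 CPM in Fpr2KO (SD, n = 5), with an estimate of -0.45 (SE 0.19) and -0.29 without Fpr2KO replicate 4, where it measured 19.4 CPM. The estimate for Oas3 was -0.32 (SE 0.16), and -0.19 without that library. The estimates for Oas1a and Oasl1 were each -0.27 (SE 0.16 and 0.17), and -0.15 and -0.18 without Fpr2KO replicate 4. Oas1a shares 68.8% of its 31-base sequences with other genes, nearly all with Oas1g, and the count of either is uncertain.

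Isg20, Rsad2 and Isg15 had the highest estimates among the effectors. Isg20, an exonuclease that degrades single-stranded RNA, is encoded on chromosome 7 at 78913424 to 78920396. It was measured at 27.1, 26.9, 26.5, 42.3 and 36.1 CPM in WT replicates 1 to 5 and at 63.2, 53.4, 47.3, 40.0 and 38.3 CPM in Fpr2KO replicates 1 to 5. WT replicate 4 lay among the Fpr2KO libraries, and the other WT libraries lay below all of them (log2 fold change 0.61, SE 0.16, FDR = 0.236 by edgeR, and 0.0401 with DESeq2). Rsad2 encodes viperin, an enzyme that makes a chain-terminating ribonucleotide. Its levels were 41.6, 43.1, 34.4, 50.9 and 41.2 CPM in WT and 76.8, 86.3, 57.4, 28.3 and 46.4 CPM in Fpr2KO, so that the Fpr2KO libraries lay on both sides of the WT range (log2 fold change 0.48, SE 0.26, FDR = 0.587 by edgeR). Without Fpr2KO replicate 2 the Rsad2 estimate was 0.30. Isg15, a ubiquitin-like modifier, was named after its values were seen. It measured 8.08, 11.6, 16.4, 29.3 and 14.6 CPM in WT replicates 1 to 5 and 30.8, 16.7, 20.6, 16.9 and 21.9 CPM in Fpr2KO replicates 1 to 5 (log2 fold change 0.42, SE 0.32, FDR = 0.692 by edgeR). Without WT replicate 4 the Isg15 estimate was 0.75, and 0.24 without Fpr2KO replicate 1.

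The libraries in which Isg15 was highest, Fpr2KO replicate 1 and WT replicate 4, also had higher levels of short genes. The 2002 tested genes with under 1500 bases of exon had a median deviation of 0.21 (log2) in Fpr2KO replicate 1, of 0.10 in Fpr2KO replicate 4 and of 0.06 in WT replicate 4, and between -0.08 and 0.00 in the other 7 libraries. Isg15 has 756 bases of exon and Bst2, the tether of budding virions, has 903. Bst2 was highest in WT replicate 4 (74.8 CPM) and Fpr2KO replicate 1 (73.1 CPM) too, with means of 55.8 ± 12.3 CPM in WT against 58.4 ± 9.86 CPM in Fpr2KO (SD, n = 5). The 4097 tested genes with over 6000 bases of exon had median deviations of -0.09 in Fpr2KO replicate 1, -0.05 in Fpr2KO replicate 4 and -0.04 in WT replicate 4. In the other 7 libraries these lay between -0.03 and 0.07. Members of that length include Ddx60, Oasl2, Oas3 and Rnf213, with estimates below 0, and Gbp5 and Ifi44, with estimates above 0. Isg20, with 1860 bases of exon, was also highest in Fpr2KO replicate 1 (63.2 CPM) and, among the WT libraries, in replicate 4 (42.3 CPM). The part of exon length in the values of Isg15, Bst2, Isg20 and the longer members named here was not tested. Among the remaining effectors Xaf1, an antagonist of apoptosis inhibitors, had a log2 fold change of -0.17 (SE 0.13). Ly6e, a lipid-anchored protein that limits coronavirus entry, was at 1495 ± 71.4 CPM in WT against 1397 ± 102.8 CPM in Fpr2KO, with a log2 fold change of -0.10 (SE 0.08). The 4 Ifit genes, whose products bind foreign RNA ends, had estimates from -0.23 (Ifit2) to -0.08 (Ifit3). Fpr2KO replicate 4 was the lowest of the 10 libraries for all 4, and without that library the Ifit3 estimate was 0.04. Of the 31-base sequences of Ifit3, 61.8% are shared with Ifit3b, so their counts are uncertain.

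**Figure D2:**
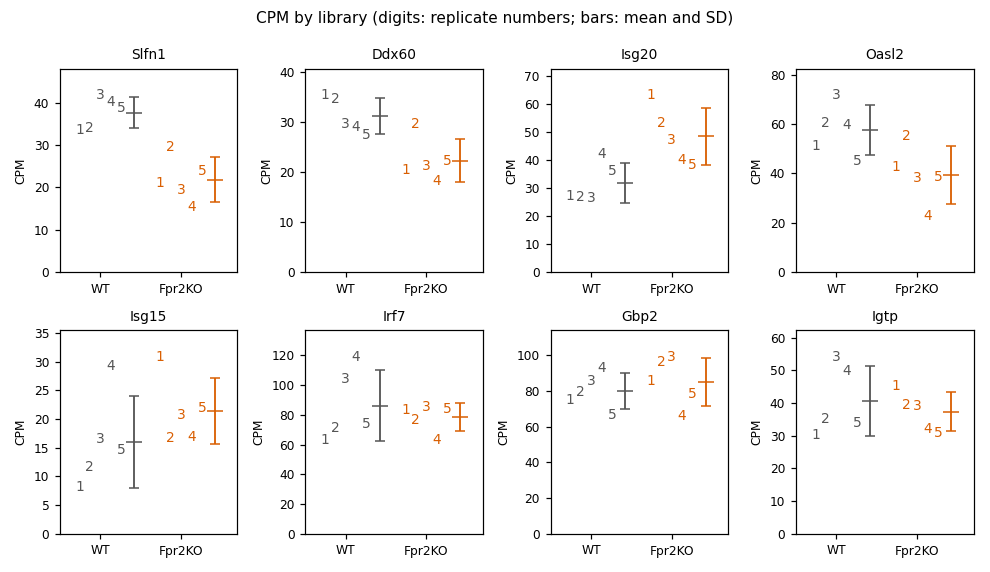
CPM (vertical axes, from 0) of 8 members in each of 5 WT and 5 Fpr2KO libraries, drawn as replicate numbers, with the mean and SD beside them. Slfn1 is the single gene of the 8 whose groups do not overlap, and Fpr2KO replicate 4 is lowest for Slfn1, Ddx60, Oasl2 and Gbp2.

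The 8 GTPases had 3 estimates below 0 and 5 above, from -0.12 to 0.20, with a median of 0.02 and none at an unadjusted p under 0.05. Without Fpr2KO replicate 3, 5 were below 0. The Gbp proteins are large GTPases that coat microbial membranes, and the Irg proteins small relatives that disrupt or protect vacuoles. Gbp2, which had the highest level per exon length of these 8, measured 74.8, 79.5, 85.7, 93.0 and 66.4 CPM in WT replicates 1 to 5 and 85.7, 96.0, 99.0, 66.1 and 78.2 CPM in Fpr2KO replicates 1 to 5. The groups overlapped over most of their range (log2 fold change 0.09, SE 0.12, FDR = 0.823 by edgeR). Gbp5, which promotes inflammasome assembly, was at 61.0 ± 5.28 CPM in WT against 70.1 ± 11.5 CPM in Fpr2KO (SD, n = 5), with an estimate of 0.20 (SE 0.11). Igtp (Irgm3), a regulatory Irg protein of lipid droplets and vacuoles, measured 30.2, 35.2, 54.2, 49.8 and 33.9 CPM in WT and 45.4, 39.5, 39.2, 32.0 and 30.9 CPM in Fpr2KO. WT replicates 3 and 4 were its 2 highest libraries, and its estimate of -0.12 (SE 0.16) became 0.00 without WT replicate 3. Igtp shares 15.9% of its 31-base sequences with Irgm2, whose estimate was -0.09 (SE 0.14). Iigp1, an effector Irg protein that loads onto vacuoles, had a log2 fold change of 0.16 (SE 0.23).

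All 10 of the other induced genes had estimates below 0, with a median of -0.16, beside 46.8% of all tested genes below 0. Fpr2KO replicate 4 was the lowest of the 10 libraries for all 10 of them, compared with 12.9% of all tested genes. Without that library all 10 stayed below 0, with a median of -0.07. The median was -0.31 without Fpr2KO replicate 2. Slfn1, a Schlafen family member first studied in T cell development, lies on chromosome 11 (plus strand, 83116849 to 83122670). It measured 33.6, 34.1, 41.8, 40.1 and 38.7 CPM in WT replicates 1 to 5 and 21.1, 29.5, 19.3, 15.2 and 24.0 CPM in Fpr2KO replicates 1 to 5. Every Fpr2KO value was under every WT value, which was so for no other member and for 0.566% of all tested genes. The reverse, every Fpr2KO value above every WT value, was found for 0 members and for 0.825% of all tested genes. The log2 fold change of Slfn1 was -0.79 (SE 0.14), at FDR = 0.0845 by edgeR, 0.0785 with the replicate block and 0.051 with limma voom. It passed with DESeq2 (0.000268), with no filter on low counts (0.0075, where 0.217% of genes passed) and without Fpr2KO replicate 2 (0.00616 by edgeR). Of 8 T cell markers 6 had estimates above 0 and 2 below (median 0.24). Their summed level was 144.8 to 189.3 CPM in WT and 160.2 to 191.3 CPM in Fpr2KO. It was mainly that of Cd4, at 107.2 CPM in WT against 102.3 CPM in Fpr2KO (log2 fold change -0.07). Cd3e, Cd3d, Cd3g and Cd247 had means of 1.465 to 2.975 CPM in WT, with estimates from 0.20 to 0.56. The neutrophil and classical monocyte markers were all estimated lower, as given above. The part of any cell type in the Slfn1 values was not tested. Other Schlafen genes lay nearer to 0, with -0.19 (SE 0.16) for Slfn5 and -0.08 (SE 0.16) for Slfn8. Rnf213, a giant ubiquitin ligase that coats bacteria and lipid droplets, was at 483.4 ± 26.3 CPM in WT against 393.8 ± 81.1 CPM in Fpr2KO (log2 fold change -0.30, SE 0.12, FDR = 0.454 by edgeR), where replicates 2 and 3 reached the WT range. The ADP-ribosyltransferase Parp14 (-0.16, SE 0.13) and the tripartite motif protein Trim30a (-0.15, SE 0.14), the most abundant of the 10 per exon length, were below 0 by about 1 SE.

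Much of the variation of these genes lay between libraries of one genotype. Fpr2KO replicate 4 was the lowest of all 10 libraries for 40 of the 54 members, compared with 12.9% of all tested genes, and the lowest of the 5 Fpr2KO libraries for 43 (19.8% of all genes). Fpr2KO replicate 2 was the highest Fpr2KO library for 45 of the 54, compared with 30.0% of all genes. Among the WT libraries, replicate 4 was highest for 32 of the 54 (24.9% of all genes). Both were the highest of their genotype for 24 members, compared with 2.35% of all genes, and WT replicate 1 was the lowest WT library for 24 (20.3% of all genes). In the same Fpr2KO replicate 4 the mean level of the red pulp macrophage markers was -0.24 relative to the mean of all libraries (log2), that of the neutrophil markers -0.78 and that of the classical monocyte markers -0.59, the lowest of the 10 libraries for each list, and that of the B cell markers 0.35, the highest. In Fpr2KO replicate 2 these values were 0.16, -0.25, -0.45 and 0.05. Mitochondrial genes took 6.04% of the counts of Fpr2KO replicate 2, 3.22 to 3.99% in the other Fpr2KO libraries and 4.83 to 6.09% in WT. The part of these cell types and of the mitochondrial share in the order of the libraries was not tested.

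**Figure D3:**
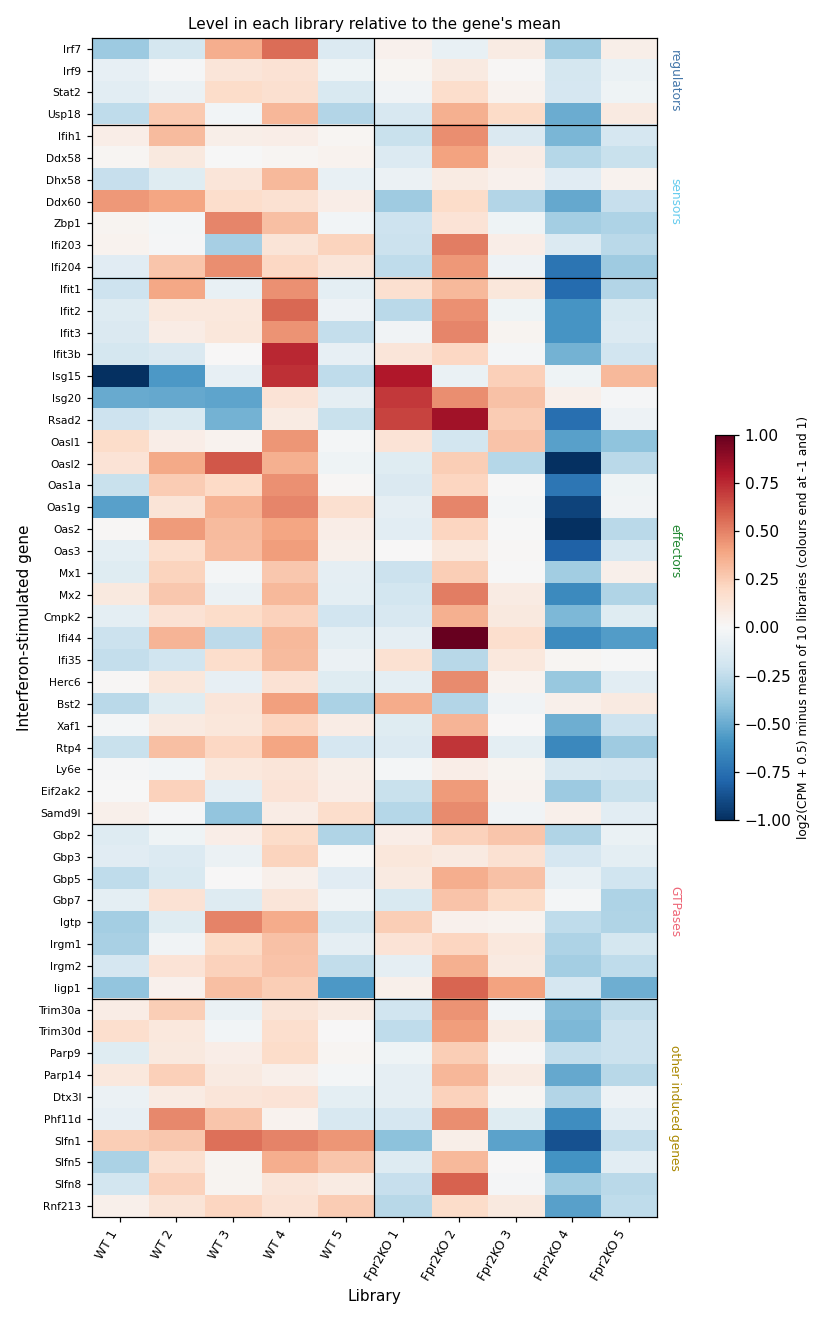
Level of each of the 54 members (rows, by role) in each library (columns), as log2(CPM + 0.5) minus the gene's mean over the 10 libraries. Fpr2KO replicate 4 is lowest for 40 members and Fpr2KO replicate 2 the highest Fpr2KO library for 45. Isg15, Isg20, Bst2, Ifi35, Irf7 and Igtp are among the members that depart from both.

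The mean level of the 36 type I antiviral genes, relative to the mean of all libraries on the log2 scale, was -0.13, 0.08, 0.07, 0.31 and -0.05 in WT replicates 1 to 5 and -0.02, 0.30, 0.04, -0.46 and -0.15 in Fpr2KO replicates 1 to 5. For the 8 GTPases it was -0.23, -0.02, 0.14, 0.22 and -0.19 in WT and 0.06, 0.27, 0.19, -0.21 and -0.24 in Fpr2KO. WT replicate 4 and Fpr2KO replicate 2 were the highest library of their genotype for both groups. Fpr2KO replicate 4 was the lowest library for the type I antiviral genes, but for the GTPases WT replicate 1 and Fpr2KO replicate 5 were lower. The genotype means were 0.06 ± 0.17 in WT and -0.06 ± 0.28 in Fpr2KO for the type I antiviral genes, and -0.02 ± 0.20 and 0.02 ± 0.23 for the GTPases (SD, n = 5). The level of type I antiviral genes minus that of GTPases was 0.07 ± 0.08 in WT and -0.07 ± 0.14 in Fpr2KO, a difference of -0.15 between the genotypes, and -0.10 without Fpr2KO replicate 4. WT replicate 3 (-0.07) lay within the Fpr2KO range of -0.25 to 0.09, and Fpr2KO replicates 2 and 5 (0.03 and 0.09) within the WT range. These means are given without a test, because the members were chosen with earlier results of these data known.

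**Figure D4:**
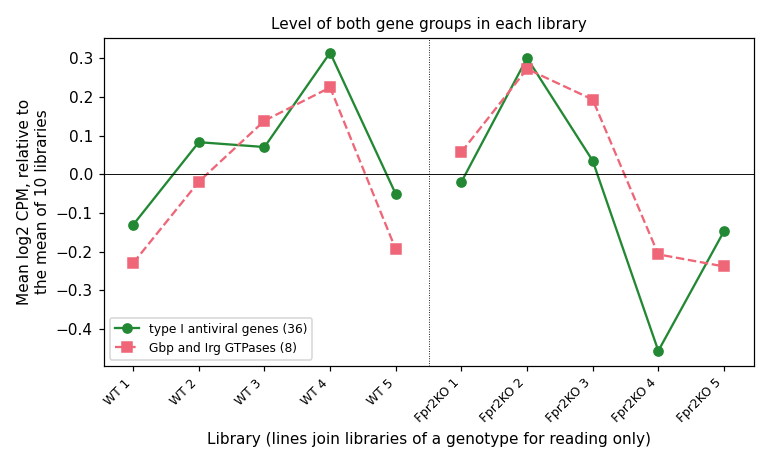
Mean log2 CPM of the 36 type I antiviral genes (circles) and the 8 Gbp and Irg GTPases (squares) in each library, relative to the mean of the 10 libraries. Both groups peak in WT replicate 4 and Fpr2KO replicate 2, and Fpr2KO replicate 4 lies at -0.46 for the first and -0.21 for the second.

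Pairs of single genes were correlated across the 10 libraries after the mean of each genotype was subtracted, with exact permutation within genotype and adjustment over the 6 pairs computed, of which 4 are given. The pairs were chosen with earlier results of these data known, and no share over other gene pairs was computed. Libraries differed for many members at once, and whether a correlation is particular to its pair was not tested. Irf7 went with Gbp2 (Pearson's r = 0.69, exact permutation p = 0.0215, adjusted p = 0.0429; Spearman's rho = 0.68, p = 0.0288, adjusted p = 0.0432). Without the 2 libraries farthest from the median of Irf7, WT replicates 3 and 4, r was 0.54 with an adjusted exact permutation p of 0.396 over fewer libraries. Gbp2 went with Igtp (r = 0.69, exact permutation p = 0.0309, adjusted p = 0.0464; rho = 0.70, p = 0.0288, adjusted p = 0.0432), and r was 0.69 without WT replicate 5 and Fpr2KO replicate 4 (adjusted exact permutation p = 0.255). Irf7 with Ifit3 gave r = 0.62 (exact permutation p = 0.0409, adjusted p = 0.0491; rho = 0.65, p = 0.0538, adjusted p = 0.0646), and 0.48 without WT replicates 3 and 4 (adjusted exact permutation p = 0.396). Irf7 with Oasl2 did not pass (r = 0.52, exact permutation p = 0.0681, adjusted p = 0.0681; rho = 0.45, p = 0.195, adjusted p = 0.195; r = 0.57 without WT replicates 3 and 4).

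Other genes of the interferon system were read from a list of 86, of which 65 were tested and 0 passed the FDR by edgeR. DESeq2 also called 0, beside 1.26% of all tested genes. Of the 65, 27 (41.5%) had estimates below 0 and 38 above (median 0.01), beside 46.8% of all tested genes below 0. At an unadjusted p under 0.05 by edgeR, 4 were lower and 2 higher, beside 4.92% and 4.88% of all tested genes. Few reads were assigned to the ligands. Shared sequence was not examined for them, so reads that match several of these genes could be missing from the counts. Of 17 interferon genes 10 had 0 reads in every library, and the 6 other than Ifng with any reads had 13 between them, with at most 4 for one gene. A count of 0 allows up to 3 reads, which is 0.157 to 0.189 CPM in the deepest and the shallowest library and covers counting error only. Ifng was at 1.11 ± 0.310 CPM in WT against 1.08 ± 0.352 CPM in Fpr2KO (SD, n = 5).

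The receptors were present at levels that overlapped between genotypes. Ifnar1 was at 119.0 ± 7.59 CPM in WT against 119.5 ± 11.7 CPM in Fpr2KO, and Ifnar2 at 104.2 ± 7.20 and 102.5 ± 6.86 CPM (SD, n = 5). Ifngr1, the ligand-binding chain of the interferon gamma receptor, measured 399.1, 400.4, 408.7, 366.4 and 381.8 CPM in WT and 316.9, 360.3, 318.6, 316.2 and 401.7 CPM in Fpr2KO. All but Fpr2KO replicate 5 lay below the WT libraries (log2 fold change -0.19, SE 0.08, FDR = 0.488 by edgeR), while its partner chain Ifngr2 was estimated at 0.01 (SE 0.08). The estimate for Ifnlr1, the receptor chain for lambda interferons, was -0.63 (SE 0.25) and became -0.35 without WT replicate 3. Downstream of the receptors Irf1, a transcription factor induced early by interferon gamma, had a log2 fold change of -0.03 (SE 0.12). Socs3, a feedback inhibitor of cytokine receptors, had one of -0.55 (SE 0.21) and -0.35 without WT replicate 3, and Irf3, the factor that starts interferon production, one of 0.29 (SE 0.13). In the induction pathway Ikbke (-0.23, SE 0.11) and Trim25 (-0.22, SE 0.12) had the smallest p-values, of 0.0502 and 0.0949 by edgeR before adjustment.

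Of the 22 further interferon gamma targets 18 were tested, with 3 estimates below 0 and 15 above and a median of 0.07, beside 46.8% of all tested genes below 0. This count depended on single libraries. Without WT replicate 5, and also without Fpr2KO replicate 2, 8 were below 0 and 10 above (medians 0.02 and 0.04). Without WT replicate 4, 2 were below 0 and 16 above. The estimates for the chemokine genes were 0.21 (SE 0.19) for Cxcl9 and 0.17 (SE 0.18) for Cxcl10, and that for Cxcl9 was 0.07 without Fpr2KO replicate 3. Gbp2b had the smallest p-value among them (log2 fold change 0.57, SE 0.27, FDR = 0.518 by edgeR) at 2.06 ± 0.793 CPM in WT against 3.06 ± 0.640 CPM in Fpr2KO, followed by the immunoproteasome subunit Psmb8 (0.25, SE 0.17). Among 8 genes that clear or edit cellular nucleic acid, Samhd1, which depletes nucleotides, was at 819.7 ± 57.4 CPM in WT against 710.6 ± 62.7 CPM in Fpr2KO (log2 fold change -0.21, SE 0.08, FDR = 0.449 by edgeR), and Rnaseh2a had a log2 fold change of 0.24 (SE 0.11). Trex1, the cytosolic DNA exonuclease, is listed at 0 in all 10 libraries. The annotated exons of Atrip overlap 100% of its exon length, so that its reads may not have been assigned to it, and no level can be given.

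Levels can be compared between genes per exon length, as CPM per kilobase of exon (RPKM). The members spanned from 0.774 ± 0.177 RPKM for Ifi44 to 395.0 ± 18.9 RPKM for Ly6e in WT (SD, n = 5), and the next highest were Bst2 at 61.8 ± 13.7 and Trim30a at 54.1 ± 4.21 RPKM. Of the 53 pairs of neighbours in the WT order, 49 differed by less than the sum of their SDs, and the 4 that differed by more were Ly6e over Bst2, Trim30a over Ifi203, Mx2 over Oas1g and Oas1g over Ifi44. Of the 31-base sequences of Ifi203 and Oas1g, 21.6% and 55.1% also occur in other genes, so the levels of both are uncertain. Among the GTPases Gbp2 (31.8 ± 4.05 RPKM in WT) lay above Gbp3 (23.0 ± 2.40) and Igtp (20.1 ± 5.25), whereas Iigp1 was lowest at 4.56 ± 1.19 RPKM. Irf7 (22.8 ± 6.36 RPKM) and Stat2 (21.4 ± 2.35 RPKM) overlapped, and Usp18 was lower at 7.14 ± 1.46 RPKM. In Fpr2KO Ly6e was at 369.1 ± 27.2 and Ifi44 at 0.819 ± 0.467 RPKM.

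**Figure D5:**
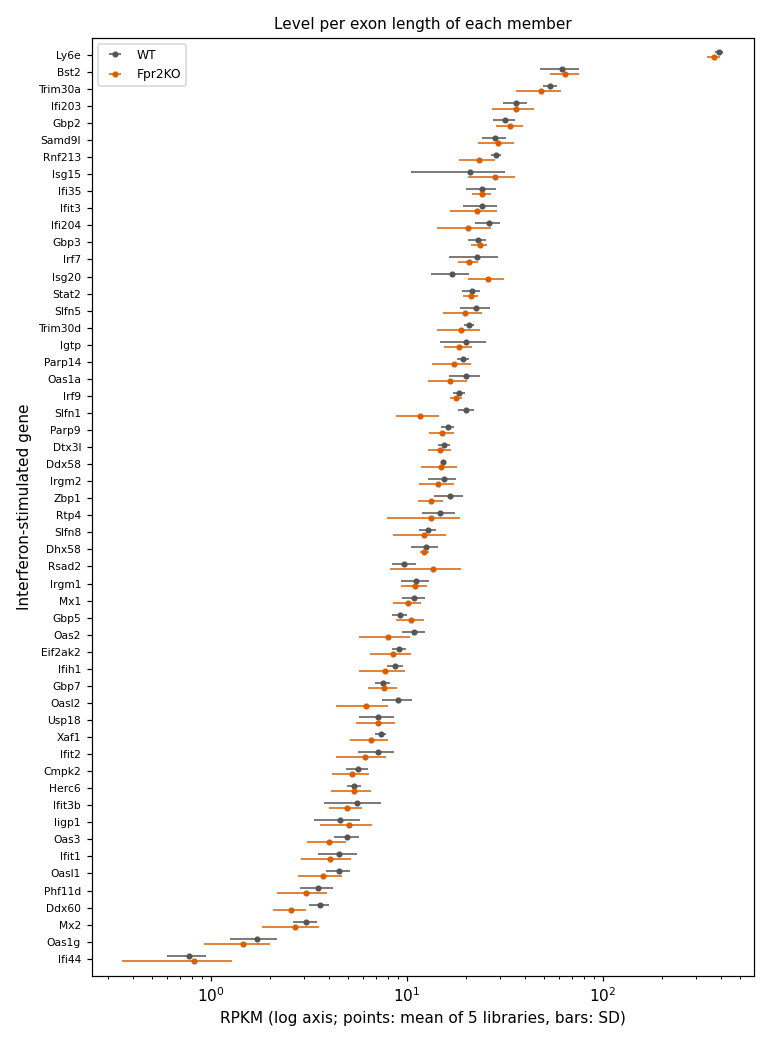
RPKM of each member (horizontal log axis; mean of 5 libraries with SD as bars) in WT and Fpr2KO, sorted by the mean of all libraries. Ly6e stands above the rest at 395.0 RPKM in WT, and Ifi44 is lowest at 0.774 RPKM.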

How the data were processed

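The deposited table holds raw counts, deposited by the authors as whole numbers with no normalisation, for each Ensembl gene in 5 WT and 5 Fpr2KO libraries. HTSeq 0.10.0, FastQC 0.10.1 and the builds mm10 and GRCm38 are named per the submitters' processing notes. Aligner, strand setting and annotation release: not given in the sources used here. Therefore reads of overlapping or antisense genes cannot be told apart. Symbols, exon lengths and coordinates came from GENCODE M21 (GRCm38), which matched 52081 of 55414 identifiers. Groups came from the genotype labels and replicate numbers from the titles. Each of 20 pairs of libraries within a group differed by more than sampling noise (chi-square per degree of freedom 12.4 to 68.2), and all were kept.

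Counts were fitted in R 4.3.3 with edgeR 4.0.16 (filterByExpr, TMM, robust quasi-likelihood, two-sided, no covariate) over 14669 genes, with Benjamini-Hochberg adjustment over all of them and a threshold of 0.05. The SE is the log2 fold change divided by the root of the F statistic. Alternatives were other scalings and filters, DESeq2 1.42.0, limma voom 3.58.1, the replicate number as a block, and leaving out each library. Log2 levels used a prior count of 2. On simulated counts of 14483 genes the fit recovered 44% of genes changed by 1.5-fold and 78% of those changed by 2-fold. Of its 164 calls 11 were false. Each gene was drawn independently, with 50 genes changed at each fold size, so variation shared by many genes within a library was not simulated. The fit of the real counts made 10 calls, so the shares recovered need not hold for it.

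The 54 genes, their role groups, the pathway and marker lists and the tests were chosen with earlier results of these data known. Members named by rule were those with the smallest p-values in each role (8 effectors, 4 in each other role) and the member with the highest RPKM; others are named to complete a family or after their values were seen. 1 planned gene of the pathway, with its correlations, is not reported here.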

Additional observations from a re-analysis of the deposited data

Results flagged for a closer look

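Within each genotype, the highest or lowest of the 5 libraries was compared with its nearest neighbour by Dixon's criterion, for 112 sets of 5 values. 5 sets held a library far from the others, and chance gives about 5.6. Ifih1 was far higher in 1 library of each genotype, at 82.8 CPM in WT replicate 2 and 91.6 CPM in Fpr2KO replicate 2. WT replicate 3 stood apart for Ifnlr1 (5.56 CPM), for Socs3 (187.0 CPM) and for the level of type I antiviral genes minus that of GTPases, where it was the lowest WT library (-0.0681).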

How the results depend on the processing

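The count of interferon-stimulated genes past the FDR was 0 with edgeR, 1 with no filter, 3 with DESeq2 and 0 to 2 when a library was left out, with 2 (Slfn1 and Ddx60) without Fpr2KO replicate 2. Over all genes the 10 calls became 62 with no filter, 185 with DESeq2, and 8 to 51 when a library was left out, the last without WT replicate 5. The cause was not tested. Other interferon pathway genes gave 0 under every setting run. Members with lower estimates numbered 33 to 45 when a library was left out, against 43, and GTPases 2 to 5, against 3. Of 833 values for 49 named genes under 17 settings, 827 kept their side of the threshold and 6 passed it (Slfn1, Ddx60 and Isg20).

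With the replicate number as a block, 0 members and 64 genes passed the FDR. The deviations of libraries with the same number from their genotype means correlated at r from -0.24 to 0.29. Replicates 2 and 4 were each other's best match (r = 0.29 and 0.25), and replicates 1, 3 and 5 were not. These values do not settle whether the numbers pair the libraries.

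The difference between type I antiviral genes and GTPases was -0.19 to -0.10 when a library was left out, and -0.56 in SD units with each gene scaled to an SD of 1. Without the 2 libraries farthest from the median of the first gene, the 3 correlations that had passed no longer did by exact permutation: Irf7 with Ifit3 (r = 0.48), Irf7 with Gbp2 (0.54) and Gbp2 with Igtp (0.69). Fewer libraries also raise the smallest p that can be reached. When 1 library was left out, r ranged from 0.46 to 0.84 for Irf7 with Ifit3, 0.36 to 0.65 with Oasl2 and 0.60 to 0.75 with Gbp2, and from 0.62 to 0.73 for Gbp2 with Igtp. Changes of 1.5-fold were often missed in the simulated counts, and the share missed in the real counts was not tested.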
